A study of Drosophila melanogaster with 16 samples.

Results

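The domains described here are 316 stretches of chromatin that carried H3K27 trimethylation (K27me3) in the wing imaginal disc of Drosophila melanogaster and shared no base pair with a K27me3 domain of the eye disc. They were chosen from the authors' lists of called domains, out of 583 wing domains on the main chromosome arms (54.2%). The other 267 wing domains touched an eye domain and are called kept domains below. All discs came from third-instar (L3) larvae, and the labels of these ChIP-seq samples name no mutant genotype, treatment or driver. The lists used were wing K27me3, wing PC and wing PH, then eye K27me3, eye PC, eye PH and eye K27ac. K27ac of the wing disc was not analysed here. Each list is 1 sample that stands for replicates 1 and 2 together per its label, with no value per replicate. The spread between replicates is therefore unknown, and no test between discs was possible. The lists hold the position of each called region with no height or score, and read depth is unknown. A region missing from a list may therefore lie under the caller's threshold, and a lost mark and a mark that was not called cannot be told apart.

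Imaginal discs are the larval epithelia from which adult structures form, here the wing and the eye with its head parts. Polycomb repressive complex 2 places K27me3 on nucleosomes at silent developmental genes. Polycomb (PC), whose chromodomain binds K27me3, and Polyhomeotic (PH), whose SAM domain lets the protein form chains, are subunits of Polycomb repressive complex 1 (PRC1). K27ac is acetylation of the same lysine, is found at active promoters and enhancers, and cannot sit on the same histone tail as K27me3. A disc is a mixture of cell types, so both marks can be called at the same place in a single tissue.

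Wing-alone domains were mostly narrow and took up little of the marked chromatin. Their median width was 1151 bp, with quartiles of 851 and 2114 bp, against a median of 20451 bp and quartiles of 3276 and 49826 bp for kept domains. In all, 122 of 316 wing-alone domains (38.6%) were under 1 kb, against 17 of 267 kept domains (6.37%). Only 12 wing-alone domains (3.80%) reached 10 kb, against 165 kept domains (61.8%). Wing-alone domains summed to 930.4 kb, or 9.21% of the 10104 kb of wing K27me3, although they were 54.2% of the domains by number. The 5 widest held 30.7% of their length and the 20 widest held more than 50% of it. Whether a domain meets an eye domain depends on its width by the rule itself, so the difference in width is a description and was not tested. Domain edges in both K27me3 lists lay on a 50 bp grid, and the narrowest wing-alone domain was 501 bp (2R:14347501-14348001).

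**Figure D1:**
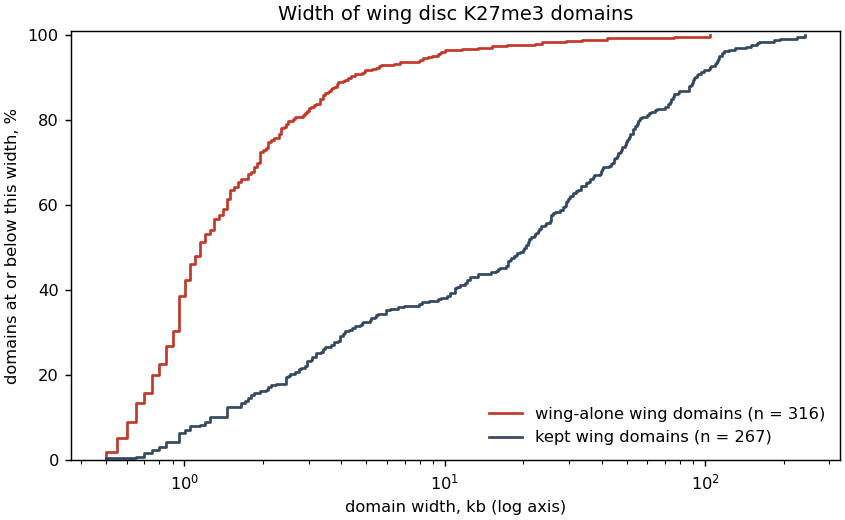
Cumulative share of wing disc K27me3 domains (y axis, percent) at or below each width (x axis, kb, log axis) for 316 wing-alone and 267 kept domains. The wing-alone curve lies to the left, with a median of 1151 bp against 20451 bp for kept domains.

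Few of these domains lay at the rim of an eye domain. The distance to the nearest eye domain had a median of 97199 bp, quartiles of 32087 and 223136 bp and a maximum of 1078549 bp. Of the 316, 1 lay within 1 kb of an eye domain, 14 within 5 kb, 32 within 10 kb and 159 (50.3%) within 100 kb. The closest was a 701 bp domain on the X (X:7390501-7391201), 799 bp away. On the other side of the rule, the least overlapped kept domain (X:5548251-5552401) shared 251 bp, or 6.05% of its 4151 bp, with an eye domain. Kept domains were covered by eye K27me3 over a median of 97.6% of their length, and 37 of them over less than 50%. The wing-alone domains were also scattered among themselves. A total of 72 had another wing domain within 10 kb, which was wing-alone for 41 and kept for 31.

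The X carried a larger share of these domains than its length. It held 114 of the 316 wing-alone domains (36.1%), against 26.6% of kept domains and 18.6% of the summed arm length. All eye domains had 28.4% of their number on the X. By length the order differed, since 2R held 31.0% of the wing-alone sequence through 4 of the 5 widest domains, and the X held 23.1%. Arms 2L, 2R, 3L and 3R had 43, 47, 58 and 53 wing-alone domains, and chromosome 4 had 1. Median widths per arm ran from 1026 bp on 3L to 1301 bp on 2L, leaving out the single domain of chromosome 4, and the median on the X was 1151 bp.

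PRC1 subunits of the wing disc were called at a minority of wing-alone domains. Wing PC met 38 of 316 domains (12.0%, exact Clopper-Pearson 95% interval 8.65 to 16.1), against 183 of 267 kept domains (68.5%, 62.6 to 74.1), and 37.9% of all wing domains. Wing PH met 43 of 316 (13.6%, 10.03 to 17.9), against 187 of 267 kept domains (70.0%, 64.2 to 75.5), and 39.5% of all wing domains. At least 1 of these proteins was called at 50 wing-alone domains (15.8%, 12.0 to 20.3) and at 191 kept domains (71.5%, 65.7 to 76.9), with 41.3% for all wing domains. Both were called at 31 wing-alone domains and at 179 kept domains. These intervals cover counting error only, and domains are not replicates. With at least 50% of the region required inside the domain, wing PC and wing PH each met 7.28% of wing-alone domains, against 64.8% and 66.7% of kept ones, and with regions up to 1 kb away they met 19.9% and 26.6%, against 73.0% and 74.9%.

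The share with PRC1 followed the width of the domain. Width classes were cut at the quartiles of all 583 wing domains, which were 1001, 2351 and 18626 bp. Among 134 wing-alone domains of up to 1001 bp, 7 (5.22%) held wing PC or PH, against 1 of 19 kept domains of that width (5.26%). Between 1001 and 2351 bp it was 8 of 113 (7.08%), against 4 of 29 kept domains (13.8%). Between 2351 and 18626 bp it was 28 of 62 wing-alone domains (45.2%, exact interval 32.5 to 58.3), against 47 of 80 kept domains (58.8%, 47.2 to 69.6). Above 18626 bp all 7 wing-alone and all 139 kept domains held wing PC or PH. Within each of these classes the intervals of wing-alone and kept domains overlapped, which does not show that the shares are alike.

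**Figure D2:**
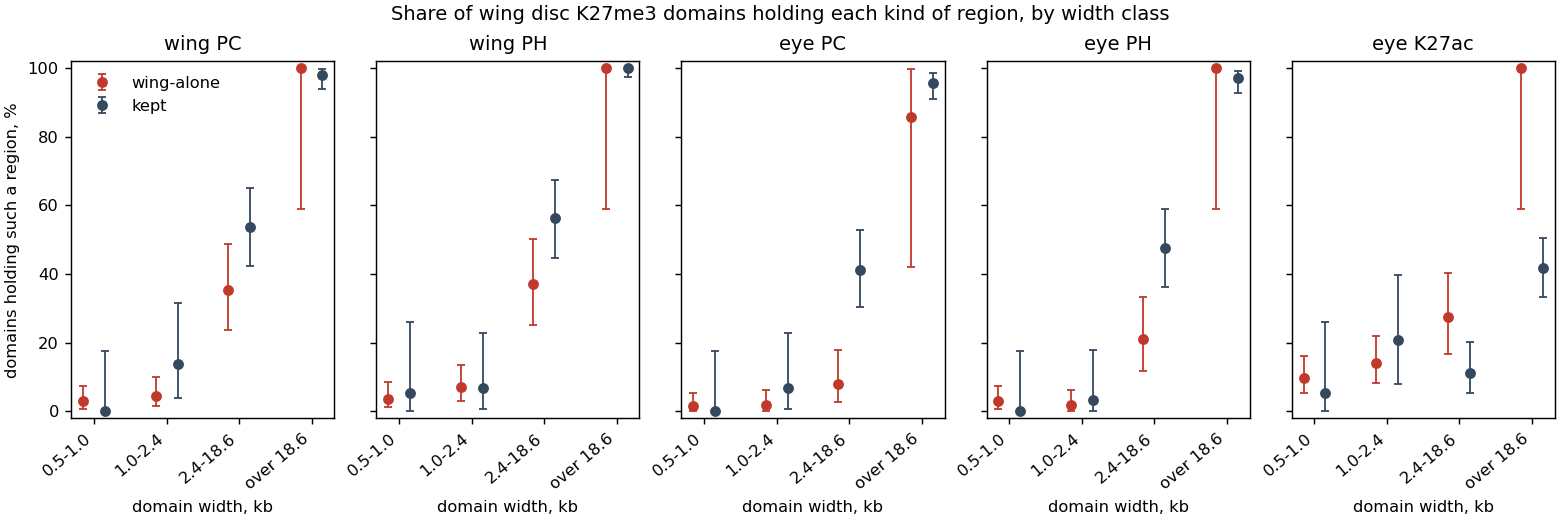
Share of wing disc K27me3 domains (y axis, percent) that hold a wing PC, wing PH, eye PC, eye PH or eye K27ac region, 1 panel each, in 4 width classes (x axis, kb), with wing-alone domains on the left and kept domains on the right of each class. Points are shares and bars are exact 95% intervals; between 2351 and 18626 bp eye PC met 8.06% of wing-alone and 41.2% of kept domains, while eye K27ac met 27.4% and 11.2%.

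Most wing-alone domains had no PRC1 call in either disc. A total of 266 of 316 (84.2%) held neither wing PC nor wing PH, against 76 of 267 kept domains (28.5%). At least 1 of them was called at 41.3% of all wing domains. Kept domains of up to 2351 bp mostly held neither as well, as given above by width class. The median width of the 266 was 1051 bp, the widest reached 8051 bp (2L:1615351-1623401), and 4 exceeded 5 kb. None of the 266 held eye PC or eye PH either, and a count of 0 of 266 allows a share of up to about 1.13%. This limit is the approximate one of 3 counts in 266, not an exact interval. Among kept domains without wing PC and PH, 4 of 76 held an eye protein. The 50 wing-alone domains with wing PC or PH were wider, with a median of 4301 bp and a range of 501 to 104651 bp.

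By length, wing PRC1 covered less of the wing-alone domains than of the kept domains. Without the 5 widest, its excess over the chromosome arms shrank for PC and was absent for PH. Wing PC regions covered 13.9% of wing-alone sequence, against 44.0% of kept sequence and 6.94% of the arms. Wing PH covered 11.0%, against 20.1% of kept sequence and 7.67% of the arms. Without the 5 widest domains, wing PC covered 8.09% and wing PH 6.93% of the remaining 644.9 kb. The value for PC was then still above that of the arms, and the value for PH was below it. Eye PC and eye PH covered 3.81% and 4.44% of all wing-alone sequence, against 2.51% and 3.95% of the arms, and without the 5 widest 2.41% and 2.96%, below the arms for both. The cover was uneven: wing-alone domains of up to 1001 bp had 2.72% of their length under wing PC and those above 18626 bp had 24.9%, so the narrow ones lay below the share of the arms. The 5 widest domains held 31 of the 70 wing PC regions and 26 of the 71 wing PH regions. Density was 0.752 wing PC and 0.763 wing PH regions per 10 kb, against 1.61 and 1.12 per 10 kb of kept domain. Some neighbouring regions in the lists are parted by a few base pairs, and joining those up to 100 bp apart left 61 wing PC and 67 wing PH regions in wing-alone domains.

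**Figure D3:**
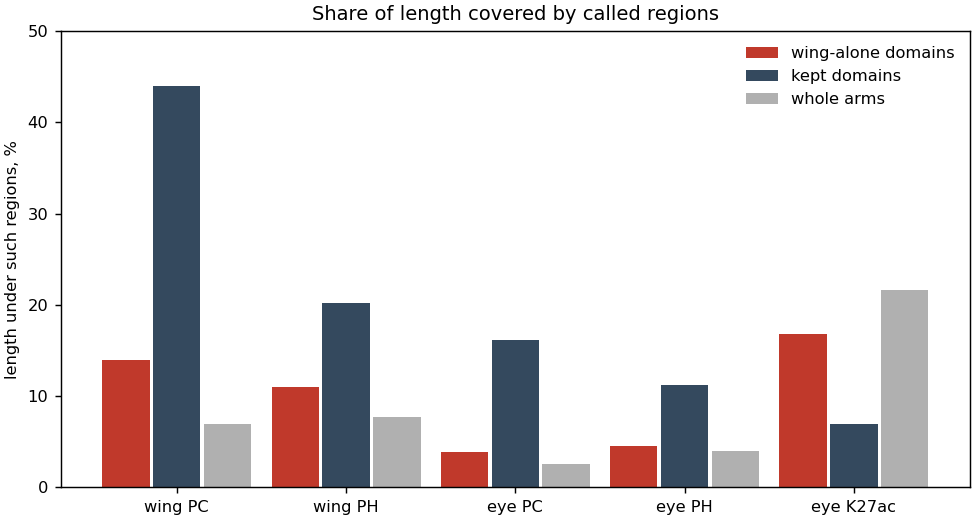
Share of sequence (y axis, percent) under each kind of called region in wing-alone domains, kept domains and the whole arms. Eye K27ac covered 16.7% of wing-alone sequence, against 6.86% of kept sequence and 21.6% of the arms, while wing PC covered 13.9%, 44.0% and 6.94%.

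In the eye disc PC and PH were called at part of the wing-alone domains, where no eye K27me3 domain was called. Most regions of the eye lists lay outside wing K27me3 domains, with 1245 of 2027 for PC and 2554 of 3370 for PH. How many of them lay outside eye K27me3 domains was not counted here. Eye PC met 15 of 316 (4.75%, exact interval 2.68 to 7.71), against 168 of 267 kept domains (62.9%, 56.8 to 68.7), and 31.4% of all wing domains. Eye PH met 26 of 316 (8.23%, 5.45 to 11.8), against 174 of 267 kept domains (65.2%, 59.1 to 70.9), and 34.3% of all wing domains. Every wing-alone domain with eye PC also held eye PH, and all 26 held wing PH. Of the wing-alone domains with wing PC, 14 of 38 held eye PC (36.8%, 21.8 to 54.0), against 166 of 183 kept domains (90.7%, 85.5 to 94.5). Of those with wing PH, 26 of 43 held eye PH (60.5%, 44.4 to 75.02), against 171 of 187 (91.4%, 86.5 to 95.03). A single wing-alone domain held eye PC without wing PC, and none held eye PH without wing PH. Eye PC between 2351 and 18626 bp met 5 of 62 wing-alone domains (8.06%, 2.67 to 17.8), against 33 of 80 kept domains of the same class (41.2%, 30.4 to 52.8), and eye PH met 13 of 62 (21.0%, 11.7 to 33.2), against 38 of 80 (47.5%, 36.2 to 59.0). In this class the intervals of wing-alone and kept domains did not overlap for either eye protein, but they cover counting error only. Median widths in the class were 3801 bp for wing-alone and 5176 bp for kept domains. The rule also chose the groups by eye K27me3, which PC binds, so the difference is a description and was not tested.

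The same comparison by single region gave a smaller contrast. Of the 70 wing PC regions in wing-alone domains 23 overlapped an eye PC region (32.9%, exact interval 22.1 to 45.1), against 35.8% of 1479 in kept domains and 38.6% of 2167 outside wing domains. Of the 71 wing PH regions 38 overlapped eye PH (53.5%, 41.3 to 65.5), against 61.4% of 1032 in kept domains and 51.7% of 3959 outside. Region by region, then, overlap with the eye protein was near that of the whole lists (37.4% and 53.7%).

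Eye K27ac was called at 53 of 316 wing-alone domains (16.8%, exact interval 12.8 to 21.4), against 74 of 267 kept domains (27.7%, 22.4 to 33.5), and 21.8% of all wing domains. By length the order was the other way round. Eye K27ac covered 16.7% of wing-alone sequence, against 6.86% of kept sequence. The arms as a whole had 21.6% of their length under eye K27ac, so wing-alone sequence lay below that level. Within width classes the share of domains with eye K27ac was 9.70%, 14.2%, 27.4% and 100% for wing-alone domains, from narrow to wide. For kept domains it was 5.26%, 20.7%, 11.2% and 41.7%. Above 18626 bp that is 7 of 7 (exact interval 59.0 to 100), against 58 of 139 (33.4 to 50.4). These intervals did not overlap, but they cover counting error only, and a pair of the 7 domains lay 3.30 kb apart. The rule parts these groups by eye K27me3, which cannot share a histone tail with K27ac. A difference in eye K27ac may thus be set in part by the rule, and it was not tested. Between 2351 and 18626 bp it was 17 of 62 (16.9 to 40.2), against 9 of 80 (5.28 to 20.3), with overlapping intervals. The share over all widths depends on the rules: among domains at or above the median width of 2351 bp it was 32.9% of wing-alone domains, against 30.6% of kept ones, and with at least 50% of the K27ac region inside the domain it was 6.01%, against 19.9%. A domain narrower than 50% of a K27ac region cannot meet this last rule, even where K27ac covers all of it.

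Wing-alone domains that met eye K27ac were often covered over most of their length. The acetylated share of the domain had a median of 78.4% among the 53, against 10.5% among the 74 kept domains. The K27ac regions at wing-alone domains had a median width of 3654 bp, and all eye K27ac regions of 2677 bp, so the median region was wider than the median wing-alone domain (1151 bp) and narrower than the median kept one (20451 bp). Cover fell with width: among wing-alone domains that met K27ac its median was 100%, 94.5%, 26.9% and 16.6% from the narrowest to the widest class (13, 16, 17 and 7 domains), against 100%, 46.5%, 9.29% and 9.21% for kept domains (1, 6, 9 and 58 domains). It passed 50% in 32 wing-alone and 12 kept domains. It was complete in 18 wing-alone domains, of median width 1126 bp, and in 1 kept domain. Of the 18, 13 held no wing PC or PH. The widest of the 18 was an 11651 bp domain (3L:714051-725701) with 2 wing PC regions, 1 wing PH region and no PC or PH region of the eye. Most of the K27ac regions ran past the edge of the domain: 49 of 76 (64.5%) crossed it in wing-alone domains, against 46 of 225 (20.4%) in kept ones.

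Eye K27ac was called more often where the wing domain held PRC1. It met 27 of the 50 wing-alone domains with wing PC or PH (54.0%, exact interval 39.3 to 68.2), against 26 of the 266 without (9.77%, 6.48 to 14.0). Among the 26 that also kept eye PC or PH it met 18, and among the 24 with wing protein alone it met 9. In length the 50 domains had 23.1% under eye K27ac and the 266 had 7.70%, with the arms at 21.6%. These sets differ in width, with medians of 4301 and 1051 bp. Among domains of 2351 to 18626 bp, eye K27ac met 14 of 28 with wing PC or PH (50.0%, exact interval 30.6 to 69.4), against 3 of 34 without (8.82%, 1.86 to 23.7). Up to 1001 bp it met 3 of 7 with wing PC or PH, against 10 of 127 without, and between 1001 and 2351 bp 3 of 8, against 13 of 105, with overlapping intervals in both of these classes. Among kept domains the values were 69 of 191 (36.1%, 29.3 to 43.4) with wing PC or PH, against 5 of 76 (6.58%, 2.17 to 14.7) without. These kept sets differ more in width, with medians of 33401 and 1901 bp, and were not split by width.

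**Figure D4:**
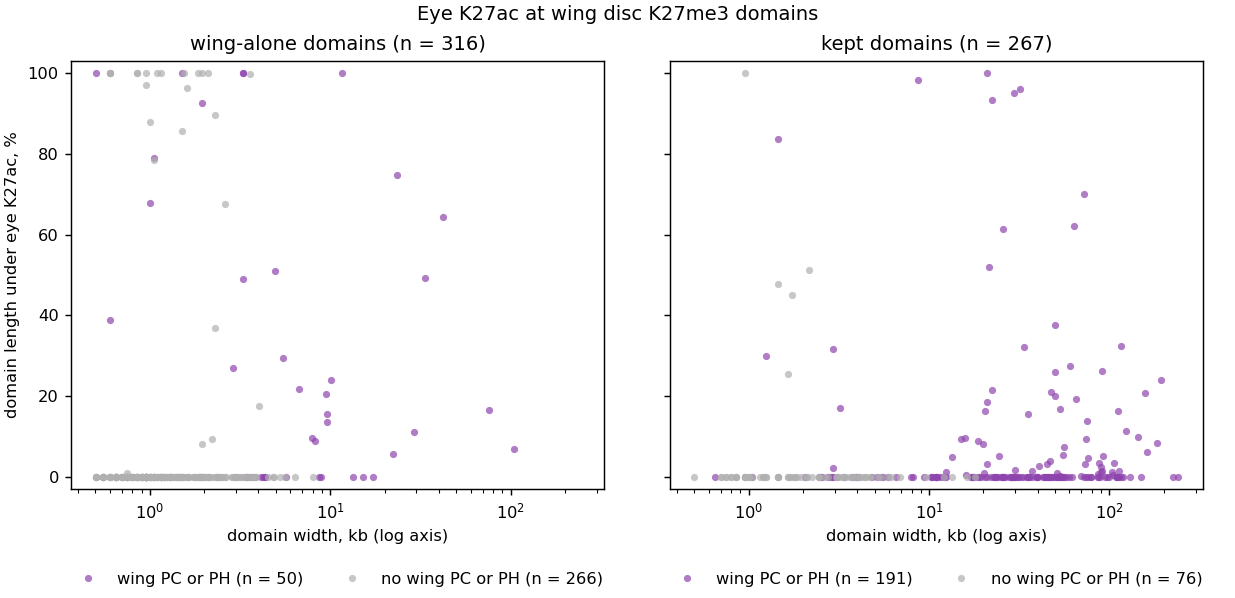
Percent of each wing disc K27me3 domain under eye K27ac (y axis) against its width (x axis, kb, log axis), for 316 wing-alone domains on the left and 267 kept domains on the right, 1 point per domain, coloured by whether a wing PC or PH region was called in it. Of the wing-alone domains, 32 lie above 50%, against 12 kept domains, and most points of both panels lie at 0.

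At the level of single wing PRC1 regions, the share with eye K27ac in wing-alone domains lay between that in kept domains and that outside wing domains. Eye K27ac met 31 of the 70 wing PC regions in wing-alone domains (44.3%, exact interval 32.4 to 56.7), against 13.2% of 1479 in kept domains (11.5 to 15.0) and 80.3% of 2167 outside wing domains (78.6 to 82.0). For wing PH it met 38 of 71 (53.5%, 41.3 to 65.5), against 15.9% of 1032 in kept domains (13.7 to 18.3) and 69.2% of 3959 outside (67.8 to 70.7). Over the whole lists eye K27ac met 52.9% of 3716 wing PC regions and 58.1% of 5062 wing PH regions. Both values lay inside the intervals for wing-alone domains, so the wing-alone shares were near those of the whole lists. Shares with and without the eye protein at the same place had overlapping intervals. Of the 23 wing PC regions with eye PC, 12 met eye K27ac (52.2%, 30.6 to 73.2), against 19 of the 47 without (40.4%, 26.4 to 55.7). Of the 38 wing PH regions with eye PH it was 21 (55.3%, 38.3 to 71.4), against 17 of the 33 without (51.5%, 33.5 to 69.2).

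The 7 wing-alone domains above 18626 bp each held wing PC, wing PH, eye PH and eye K27ac, and all but the widest held eye PC. The widest measured 104.7 kb (2R:19137801-19242451) and lay 189.3 kb from the nearest eye domain. It held 3 wing PC and 4 wing PH regions, against 0 eye PC and 2 eye PH regions. Its wing PC and PH covered 3.29% and 5.72% of it, so nearly all of this K27me3 lay between called PRC1 regions. Eye K27ac covered 7.00% of it, in 3 regions.

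The second, of 76.0 kb (3R:11351001-11426951), was the exception in position, since an eye domain of 3.80 kb began 8.25 kb beyond its end. It held 4 wing PC and 3 wing PH regions, and 1 eye PC and 1 eye PH region. Of these wing regions, 1 PC and 1 PH overlapped the eye protein. Eye K27ac covered 12.6 kb, or 16.6%.

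A pair of neighbouring domains on 2R, parted by 3.30 kb, had the largest share of length under wing PC and wing PH among the 7 widest, though some narrower wing-alone domains were covered more fully. The 42.0 kb one (2R:14122001-14163951) held 11 wing PC and 7 wing PH regions, against 5 eye PC and 7 eye PH regions. Wing PC covered 78.2% and wing PH 44.2% of it, and eye PC and PH covered 32.7% and 30.0%. Eye K27ac covered 64.3% of it, or 26.99 kb, and met 5 of the 11 wing PC and 5 of the 7 wing PH regions. The 33.7 kb one (2R:14085001-14118701) held 7 wing PC and 7 wing PH regions, against 2 eye PC and 2 eye PH regions. Wing PC covered 53.9% and wing PH 44.3%, while eye PC and PH covered 6.68% and 7.07%, and eye K27ac 49.3%. Eye K27ac met 6 of its 7 wing PC regions. The nearest eye domain lay 257.2 kb from the 42.0 kb domain. Joining regions up to 100 bp apart left 6 wing PC and 5 wing PH regions in each of the pair.

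The 29.2 kb domain (2R:17240751-17269951) held 6 wing PC and 5 wing PH regions over 50.3% and 38.3% of its length, with eye PC and PH over 10.1% and 13.8% and eye K27ac over 11.2%. The single wing-alone domain of chromosome 4 (4:1003401-1026951, 23.6 kb) held 1 region each of wing PC, wing PH, eye PC and eye PH. It had 74.7% of its length under eye K27ac, the second largest acetylated length of the set at 17.6 kb. The seventh (3R:20807251-20829501, 22.3 kb) likewise held 1 region of each protein in each disc, and eye K27ac covered 5.60% of it. The 5 wing-alone domains with most eye K27ac were the 42.0, 23.6, 33.7 and 76.0 kb ones and the 11651 bp domain of 3L, and they held 54.9% of all acetylated length of the set.

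**Figure D5:**
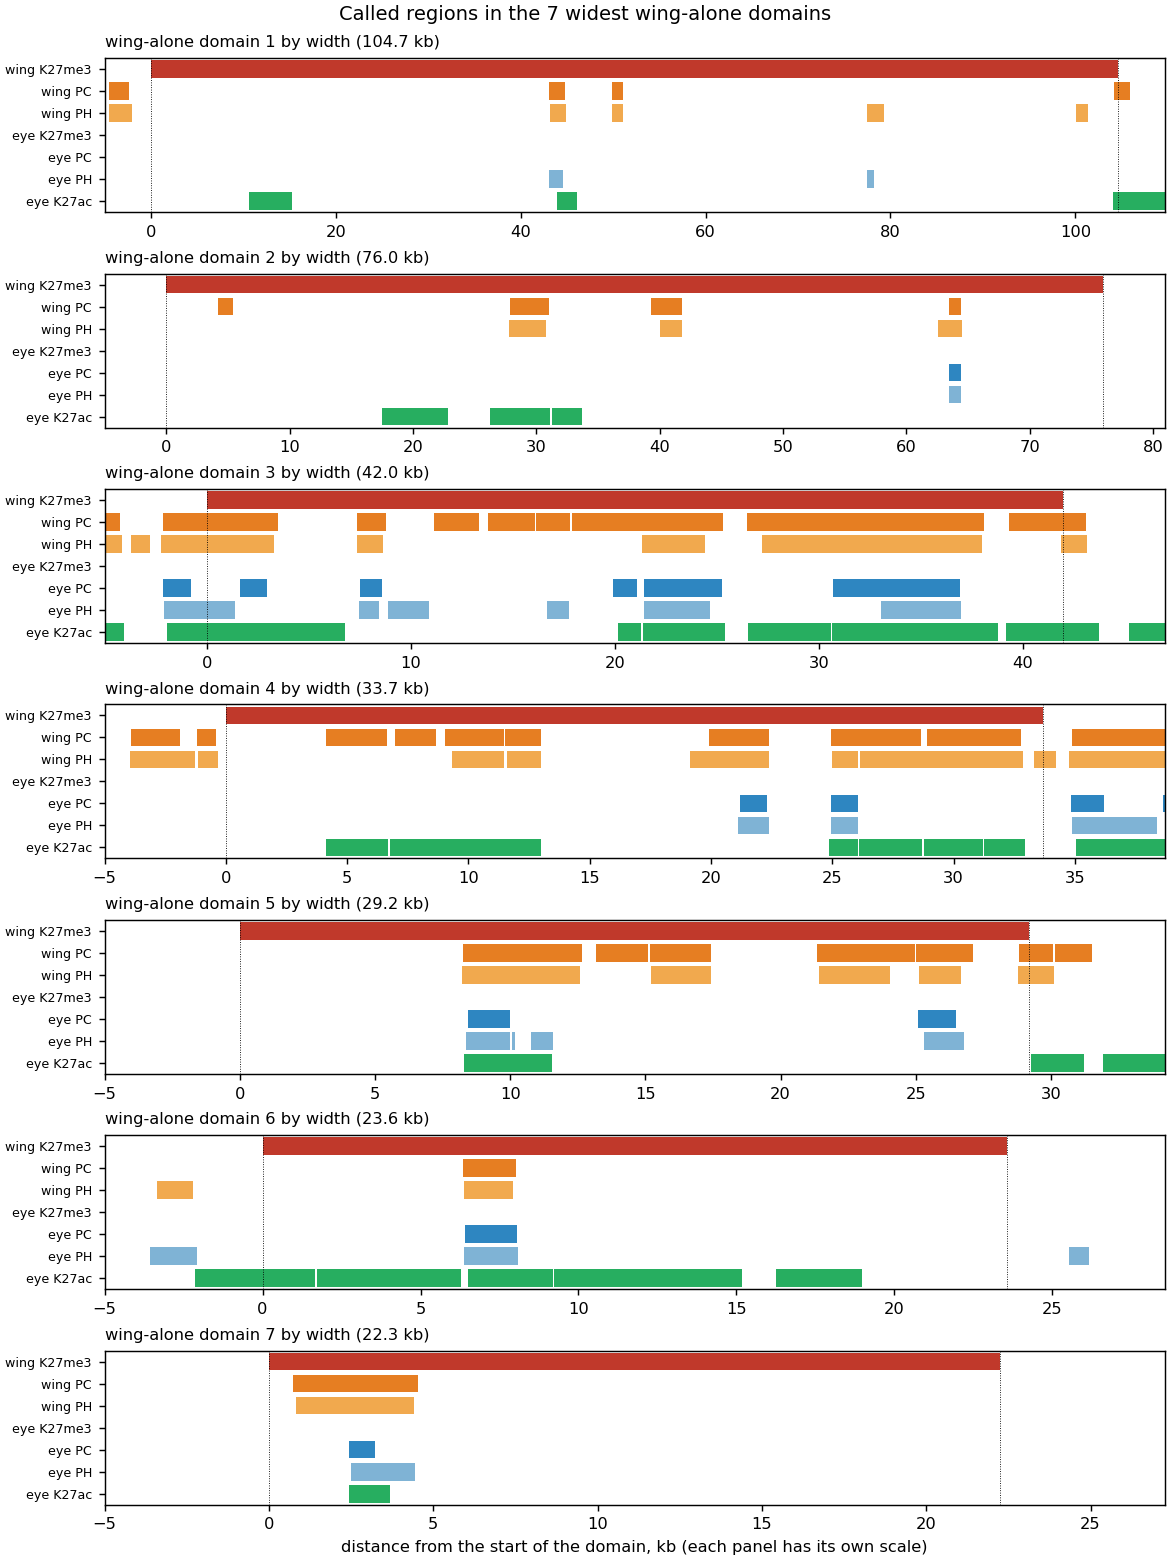
Called regions in the 7 widest wing-alone domains, from 104.7 kb at the top to 22.3 kb at the bottom, with distance from the start of the domain on the x axis (kb, own scale in each panel) and 1 row per list; dotted lines mark the ends of the wing K27me3 domain and 5 kb are shown on each side. No eye K27me3 falls in any panel, whereas eye PH and eye K27ac bars stand in all 7.

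The next domains by width held wing PRC1 with little or no counterpart called in the eye. The wing lists are longer, with 3716 PC and 5062 PH regions on the arms, against 2027 and 3370 for the eye. In the whole lists 37.4% of wing PC and 53.7% of wing PH regions overlapped the eye protein. A wing region without an eye region was therefore common outside these domains too. The eighth (2L:8138151-8155451, 17.3 kb) held 1 wing PC and 1 wing PH region and lay 586.1 kb from any eye domain. The ninth (3R:11975951-11991151, 15.2 kb) held 2 of each, over 21.3% and 20.2% of its length. Neither held eye PC, eye PH or eye K27ac. The tenth (2L:20713001-20726451, 13.5 kb) held 1 wing PC and 1 wing PH region, with 1 eye PH region that the wing PH region overlapped. In all, 24 wing-alone domains held wing PC or PH and neither eye protein, with a median width of 3551 bp, and 9 of the 24 held both wing PC and wing PH. They were 7.59% of wing-alone domains, against 6.74% of kept domains and 7.20% of all wing domains. Among domains with wing PC or PH they were 24 of 50 (48.0%, exact interval 33.7 to 62.6), against 18 of 191 kept domains (9.42%, 5.68 to 14.5). These 50 and 191 domains differ in width, with medians of 4301 and 33401 bp.

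Domains called in the eye disc alone were set beside them as the reverse choice. The wing-alone domains had a median width of 1151 bp, against 1201 bp for the 77 of 349 eye domains that touched no wing domain. In their own disc, wing PC or PH met 50 of 316 wing-alone domains (15.8%), against 9 of 77 eye-alone domains with eye PC or PH (11.7%, exact interval 5.49 to 21.0). Wing PC or PH also met 10 of the 77 eye-alone domains (13.0%, 6.41 to 22.6), where no wing K27me3 was called. There wing PC covered 13.8% and wing PH 14.9% of the length, against 13.9% and 11.0% of wing-alone sequence. Wing PRC1 was thus not particular to wing-alone domains. Eye K27ac, measured in the disc without the K27me3 call, met 53 of 316 wing-alone domains (16.8%), against 7 of 77 eye-alone domains (9.09%, 3.73 to 17.8), where both marks come from the eye disc. Eye K27ac covered 16.7% of wing-alone sequence, against 6.0% of eye-alone sequence. The length shares of eye-alone domains rest on few domains, since the 5 widest held 54.8% of their 357.1 kb. The intervals overlapped for each share of domains.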

How the data were processed

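PC, PH and K27me3 ChIP-seq regions of wing and eye discs and K27ac regions of eye discs were read as deposited. Per the submitters' processing notes, the tools were CASAVA 1.8.2 and SICER; the sources used here give neither thresholds nor build. Per the labels, chromatin was crosslinked for 15 min in 1.8% formaldehyde and several immunoprecipitations were pooled. The deposited lists hold start and end positions (no count, signal or score), so depth is unknown and precision cannot be given beyond counting error.

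At most 10 regions of a list were dropped because they had zero width or lay on sequence U, so that the arms X, 2L, 2R, 3L, 3R and 4 remained. Starts are printed from 1. An overlap needed 1 bp. Arm length was the largest region end in any list. Shares have exact Clopper-Pearson 95% intervals. No test was made, since every group is 1 sample. Release 6 gene positions were not used: its genes end at 32068441 on 3R, against 27897451 for the lists, and it has no sequence U. Gene names and sequences are therefore not given, and the RNA-seq tables were not used here. Regions named are the 10 widest, the 5 with most wing PH, the 5 with most eye K27ac and the narrowest; further ones were chosen after their values were seen. Members and rules were chosen with earlier results of these data known. Overlap functions were tested on simulated data. Alternatives changed the distance, overlap and width rules. Computation used Python 3.11.15, numpy 2.4.6, pandas 2.3.3, scipy 1.17.1 and matplotlib 3.10.9.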

Additional observations from a re-analysis of the deposited data

How the results depend on the processing

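The count of wing-alone domains was 315 with no eye domain within 1 kb, 284 within 10 kb, 353 when domains under 50% covered by eye K27me3 were added, and 311 without the 5 widest; it was 202 without the X and 73 at or above the median width of all wing domains. At that width the median width was 3851 bp and the shares were 41.1% for wing PC, 42.5% for wing PH, 15.1% for eye PC, 27.4% for eye PH and 32.9% for eye K27ac, against 81.7%, 84.0%, 75.8%, 79.0% and 30.6% for 219 kept domains, so the order for eye K27ac turned round against that over all widths. With at least 50% of the region inside the domain, the shares were 7.28% for wing PC and wing PH, 5.38% for eye PH and 6.01% for eye K27ac. With the centre inside they were 7.59% for wing PC, 7.28% for wing PH and 7.28% for eye K27ac. With regions up to 1 kb away they were 19.9% for wing PC, 26.6% for wing PH, 8.23% for eye PC, 17.1% for eye PH and 28.5% for eye K27ac. With only regions at or above the median width of their list they were 7.28% for wing PC and 12.7% for eye K27ac. The remaining 46 of 68 values, over 10 alternatives, stayed within the exact interval of the main value or, for counts and length shares, within 1.5 times of it; the share of length under eye K27ac ran from 13.8% without the 5 widest to 19.2%. Leaving out the 5 widest or the X was chosen after seeing the data. No paired analysis was possible because each sample stands for replicates 1 and 2 together and no result comes from a test. Read depth and calling thresholds are unknown, which limits what the absence of a region can show.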
